A study of Mus musculus with 10 samples.

Results

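The 41 genes described here are interferon-stimulated genes of mouse liver, transcripts known to rise when a cell receives type I interferon. They were chosen by name, as the rows of a liver RNA count table whose gene symbol stood on a list of RNA sensors, STAT and IRF factors and antiviral effectors. All 41 were found among the 53392 genes of the table, and all 41 passed the filter on low counts. The livers came from C57BL/6 mice aged 24 weeks, 5 WT (replicates 1 to 5) and 5 with a hepatic deficiency of FBP1, labelled Fbp1-deleted (replicates 6 to 10). Fbp1 encodes fructose-1,6-bisphosphatase, an enzyme of glucose synthesis. The series compared the transcripts of livers with and without it. The means of deletion, the cells in which it took place, and the sex and feeding state of the mice were not stated in the labels. No other treatment is named for either group.

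Type I interferons, the alpha and beta interferons and their relatives, bind a receptor made of IFNAR1 and IFNAR2. The kinases JAK1 and TYK2 on that receptor then phosphorylate STAT proteins, and STAT2 enters the complex ISGF3 with IRF9. ISGF3 binds interferon-stimulated response elements near its target genes and raises their transcription. In liver, a low tonic level of these transcripts is kept without infection, and hepatocytes, Kupffer cells and endothelial cells can all respond. Several of the targets, among them STAT2, IRF9, IRF7 and the RNA sensors, are themselves parts of the pathway.

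The response element is a pair of GAAA cores, and its letters could be looked for in the promoters. RefSeq windows of 300 bases (250 before to 50 after the transcription start, assembly GRCm38.p6) were matched by symbol for 30 of the 41 genes. Dhx58, Zbp1, Usp18, Oas2, Mx1, Mx2, Rtp4, Ly6e, Parp9, Parp14 and Ifi27 had no window. A pair of GAAA cores with any 2 bases between them (GAAA, NN, GAAA), searched on both strands, stood in the windows of 14 of the 30 genes (46.7%), against 1079 of all 27025 genes with a window (3.99%). Among genes lower in the Fbp1-deleted livers, 6.69% of all 1091 with a window held them. The letters TTCNNNGAA of the gamma-activated site, which binds STAT dimers, stood in 5 of the 30 (16.7%), against 9.55% of all genes. The motifs overlapped each other in 1 of the 33 windows of these genes. A match describes letters and does not show a bound site.

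The stretches that carry the match upstream of the start are printed for 7 genes that were called lower in the Fbp1-deleted livers and for Oas1g, the near copy of Oas1a that was not called, so that the spacing and the near-identical copies can be seen. Each is read 5′ to 3′ on the strand of its gene in GRCm38.p6, with the matched letters in capitals. Where the element lies on the other strand its cores appear as TTTC.
Stat2, chr10:128270251-128270310, plus strand: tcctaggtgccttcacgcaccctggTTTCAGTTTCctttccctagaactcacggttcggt
Isg15, chr4:156200850-156200921, minus strand: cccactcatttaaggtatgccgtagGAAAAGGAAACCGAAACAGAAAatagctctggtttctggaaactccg
Oas1a, chr5:120907526-120907570, minus strand: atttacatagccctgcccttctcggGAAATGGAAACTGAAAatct
Oas1g, chr5:120887614-120887656, minus strand: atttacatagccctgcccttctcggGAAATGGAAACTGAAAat
Ifit1, chr19:34640760-34640838, plus strand: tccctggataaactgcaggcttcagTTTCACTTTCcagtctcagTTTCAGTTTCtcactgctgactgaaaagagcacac
Ifit3, chr19:34583348-34583441, plus strand: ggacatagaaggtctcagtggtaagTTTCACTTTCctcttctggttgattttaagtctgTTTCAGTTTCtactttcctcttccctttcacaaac
Ifit3b, chr19:34607744-34607837, plus strand: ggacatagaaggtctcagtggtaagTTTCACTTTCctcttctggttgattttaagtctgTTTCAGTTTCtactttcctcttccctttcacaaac
Rsad2, chr12:26456538-26456597, minus strand: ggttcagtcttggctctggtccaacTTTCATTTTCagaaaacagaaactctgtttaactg

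The stretches of Ifit3 and Ifit3b were letter for letter the same, and their windows shared a run of 169 bases. Those of Oas1a and Oas1g shared a run of 73 bases. The window of Isg15 held 3 overlapping matches, and that of Ifit1 held 2 separate ones. The same letters stood upstream of other genes that were not called lower, of which 3 are printed for comparison.
Bst2, chr8:71537562-71537627, minus strand: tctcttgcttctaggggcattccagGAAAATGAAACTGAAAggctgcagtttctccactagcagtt
Oas3, chr5:120777700-120777759, minus strand: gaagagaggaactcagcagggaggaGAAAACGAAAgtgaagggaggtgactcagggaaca
Trim30a, chr7:104465195-104465254, minus strand: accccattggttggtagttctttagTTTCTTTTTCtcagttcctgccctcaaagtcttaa

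The match stood in 8 of the 18 windowed genes that were called lower (44.4%) and in 6 of the 12 that were not (50%). It was not found within the windows of Irf7, Irf9 and Xaf1, which were among the genes with the smallest adjusted p-values.

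The deposited values were estimated counts per gene. Totals ran from 18363516 to 23894812 counts in WT livers and from 17778395 to 21390526 in Fbp1-deleted livers. Levels are given as CPM, counts scaled to a common library size after trimmed mean of M-values (TMM) normalisation, with SD over 5 livers. A gene was called lower or higher when the edgeR quasi-likelihood test gave a Benjamini-Hochberg adjusted p under 0.05 over the 15392 genes tested. Changes are log2 values, Fbp1-deleted minus WT, with their standard errors (SE). Fbp1 itself, as a check of the group labels, ran from 778 to 1050 CPM in WT and from 7.38 to 13.4 CPM in Fbp1-deleted livers. Hepatocyte markers such as Alb and Apoa1 summed to 7.39e+04 to 1.16e+05 CPM in WT and 9.71e+04 to 1.1e+05 CPM in Fbp1-deleted livers. The spans of Dhx58, Irf9, Irf7, Usp18, Herc6, Oas2, Oasl1, Eif2ak2, Rtp4, Trim30a, Parp9, Parp14, Dtx3l and Ifi35 overlap other annotated genes, in at most 16.8% of their exon bases (Ifi35). The libraries did not keep the strand, so reads there cannot be assigned by strand. In bulk tissue, fewer cells of a type and less RNA per cell cannot be told apart.

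WT replicates 1 and 2 stood apart from the other WT livers in these genes. They were the highest pair of WT livers in 25 of the 41 genes (61%), against 18.8% of all 15392 genes tested. The median over the 41 genes of the log2 distance from the WT mean was 0.23 in WT replicate 1 and 0.30 in replicate 2. It was -0.14, -0.09 and -0.21 in WT replicates 3, 4 and 5. Results are therefore also given without replicates 1 and 2, an alternative added after the data were seen. It leaves 3 WT livers against 5.

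In the Fbp1-deleted livers 25 of the 41 interferon-stimulated genes fell, none rose, and 16 were not called. Over all genes tested, 10% were called lower and 10.6% higher. The largest changes were those of Xaf1, Mx2 and Ifit1, and the smallest adjusted p-values those of Mx2, Irf7 and Irf9. The fitted change was below 0 in 40 of the 41 genes, as it was in 49.1% of all genes, and their median was -0.74, beside 0.01 for all genes tested. In 18 of the 41 all 5 Fbp1-deleted livers lay below all 5 WT livers, a pattern that 6.89% of all genes tested showed, and in none of the 41 did all 5 lie above, which 6.57% of all genes did. At an unadjusted p under 0.05, edgeR gave 31 lower genes and 0 higher ones of the 41. The share of all genes at that threshold is not given here, so that count has no background. DESeq2 and limma-voom called 27 and 22 of the 41 lower, and neither called any higher. Of all genes tested, DESeq2 called 5.36% of 33695 lower and limma-voom 10.1% of 15392.

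Without WT replicates 1 and 2 the count fell to 13 lower and 0 higher genes, with a median change of -0.59, while 5.12% of all 15937 genes tested in that fit were called lower. The 13 were Stat2, Irf9, Irf7, Zbp1, Isg15, Oas1a, Ifit1, Ifit3, Mx2, Rtp4, Ly6e, Xaf1 and Ifi27. Leaving out one library at a time gave 19 (without WT replicate 2) to 27 (without WT replicate 5) lower genes. Of all genes tested in those fits, 6.97% and 7.63% were called lower. Of all 3178 genes called in either direction, 51.5% were higher. With upper quartile factors that share was 40.3%, and with library totals alone 37.7%, where 28 and 30 of the 41 genes were called lower. The shares of all genes tested that were called lower were 12.2% and 12.8% with these scalings.

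The Fbp1-deleted livers lay close to one another. Their medians over the 41 genes were -0.77, -0.62, -0.51, -0.74 and -0.71 in replicates 6 to 10, below that of every WT liver. From 38 to 40 of the 41 genes were below the WT mean in each Fbp1-deleted liver. That count was 33, 28 and 37 in WT replicates 3, 4 and 5, and 8 and 7 in WT replicates 1 and 2. WT replicate 2 was the highest of the 10 livers in 22 genes and WT replicate 1 in 10. Fbp1-deleted replicates 9 and 10 were each the lowest in 13 genes, and replicate 8 was the highest of its group in 17.

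**Figure D1:**
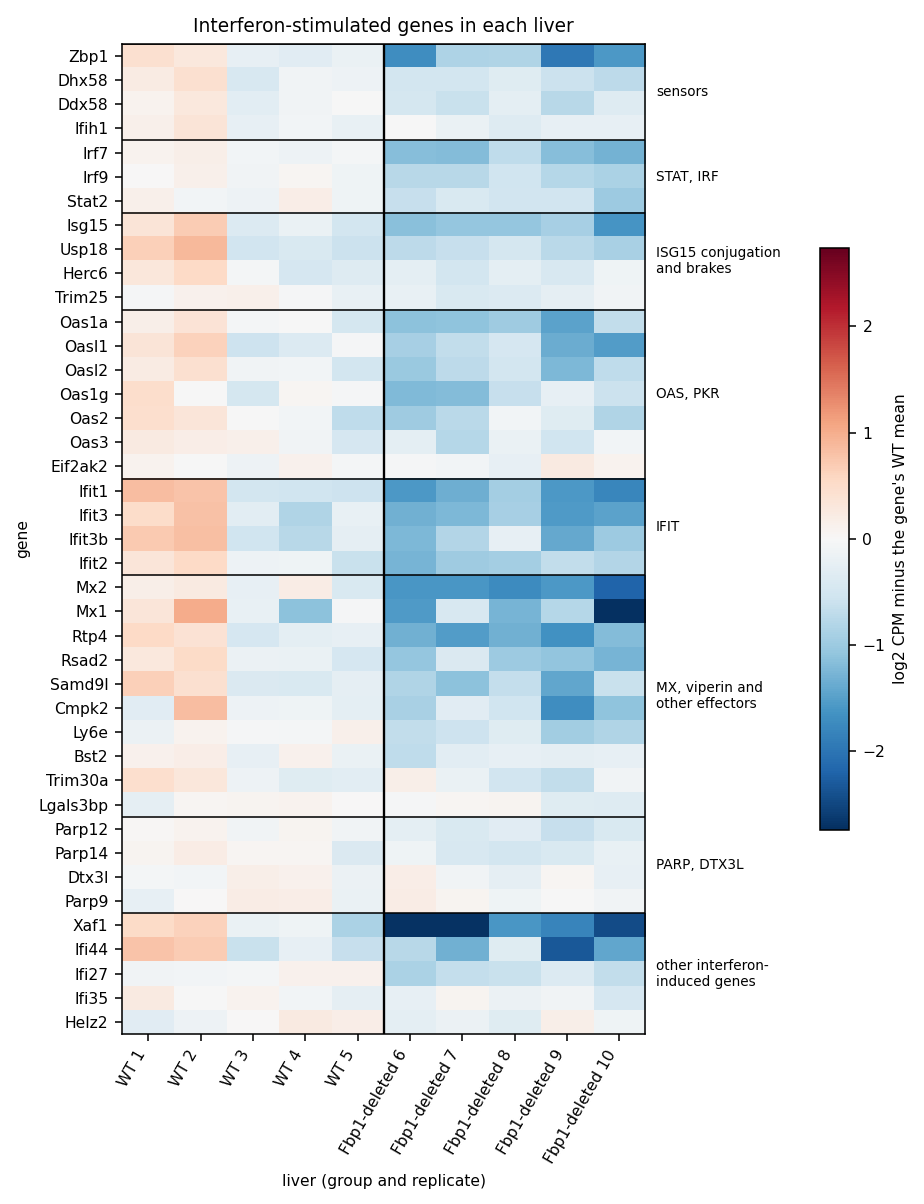
Heat map of the 41 genes (rows, grouped by role) in the 10 livers (columns), coloured by log2 CPM (prior count 2) minus the gene's WT mean. WT replicates 1 and 2 are the reddest columns (median 0.23 and 0.30), and the 5 Fbp1-deleted columns are blue in most rows (medians -0.77 to -0.51).

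The 3 transcription factors of the list all fell, with every Fbp1-deleted liver below every WT liver. Stat2, at chr10:128270559-128292849 (GRCm38), encodes the STAT that is particular to ISGF3. It stood at 80.1, 69.7, 66.6, 82.3 and 67.3 CPM in WT replicates 1 to 5 and at 47.2, 54.6, 50.5, 50.6 and 36.8 CPM in Fbp1-deleted replicates 6 to 10, a log2 change of -0.61 (SE 0.12, adjusted p = 0.00282). The groups did not overlap, and replicate 10 was the lowest liver. Irf9, at chr14:55603571-55610030, encodes the DNA-binding subunit of ISGF3. Its levels were 38.4, 41.8, 35.7, 39.3 and 35.3 CPM in WT and 22.4, 22.3, 25.9, 22.1 and 20.9 CPM in Fbp1-deleted livers, a change of -0.74 (SE 0.09, adjusted p = 0.000183), again with the groups apart. The SD of Irf9 was small in either group (2.68 and 1.90 CPM), and WT replicate 2 was the highest liver.

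Irf7, at chr7:141262706-141266481, encodes the factor that amplifies interferon alpha transcription and is itself induced by ISGF3. It measured 35.2, 36.8, 31.3, 29.7 and 31.7 CPM in the WT livers and 14.7, 14.3, 20.3, 14.5 and 13.3 CPM in the Fbp1-deleted livers. The change was -1.09 (SE 0.12, adjusted p = 7.51e-05), a fold of 2.14. Fbp1-deleted replicate 8 was the highest of its group and still below every WT liver. Without WT replicates 1 and 2 the changes of the 3 factors were -0.59 (adjusted p = 0.0215) for Stat2, -0.70 (adjusted p = 0.00281) for Irf9 and -1.0 (adjusted p = 0.0018) for Irf7. All 3 calls were kept. The span of Irf9 overlaps that of Rnf31 and the span of Irf7 that of Phrf1, in 2.3% and 1.2% of their exon bases.

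**Figure D2:**
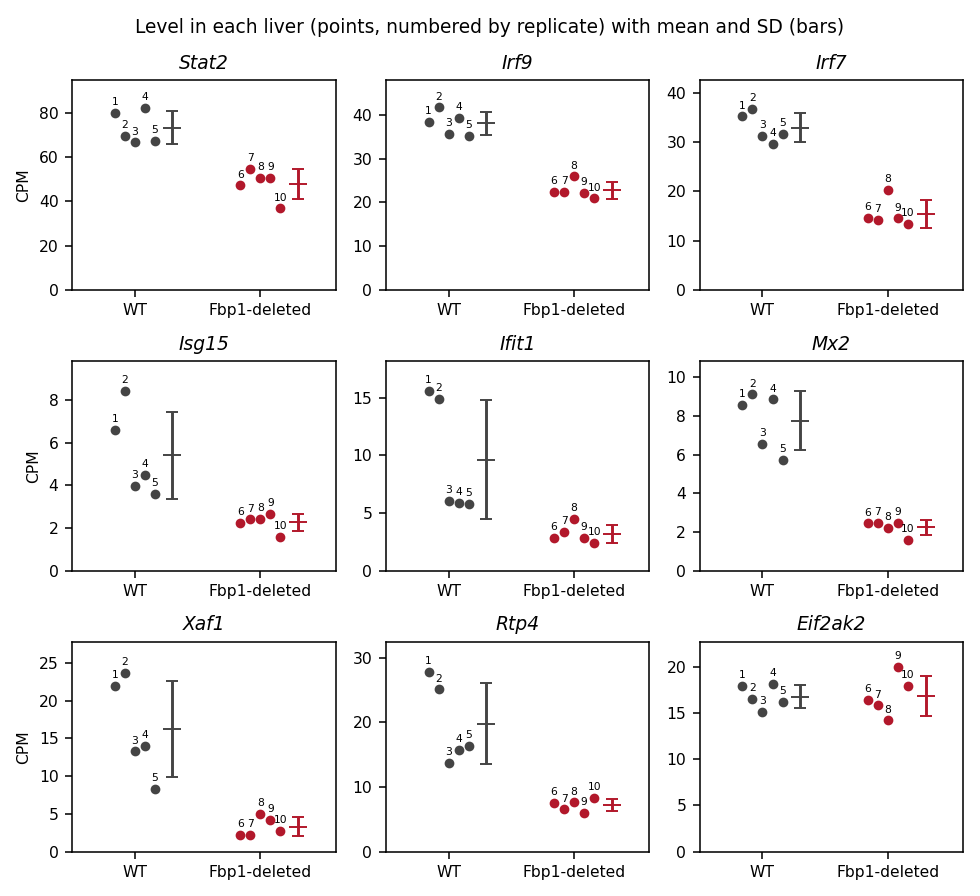
CPM of 9 genes in each liver (points, numbered by replicate) with the mean and SD of each group of 5 (bars), on axes that start at 0. In 8 panels every Fbp1-deleted liver lies below every WT liver, and Eif2ak2 overlaps between the groups. WT replicates 1 and 2 stand above the other WT livers for Irf7, Isg15, Ifit1, Xaf1 and Rtp4.

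Of the 4 nucleic acid sensors, 3 fell. Zbp1, at chr2:173206612-173218923, encodes a sensor of Z-form nucleic acid that can start necroptosis. Its levels were 8.12, 7.27, 5.09, 4.75 and 5.25 CPM in WT and 1.77, 3.29, 3.35, 1.46 and 1.93 CPM in Fbp1-deleted livers, a change of -1.37 (SE 0.26, adjusted p = 0.0028). Zbp1 did not overlap between the groups, and Fbp1-deleted replicates 7 and 8 were the higher pair of their group. With WT replicates 3 to 5 alone the change was -1.09 (adjusted p = 0.0373).

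The RIG-I-like receptors detect viral RNA in the cytosol. Ddx58, which encodes RIG-I, stood at 18.9, 21.7, 14.4, 16.6 and 17.5 CPM in WT and at 12.6, 11.5, 14.6, 10.4 and 13.8 CPM in Fbp1-deleted livers, a change of -0.50 (SE 0.13, adjusted p = 0.0174). Fbp1-deleted replicate 8 reached above WT replicate 3, so the groups overlapped. Dhx58, which encodes the regulator LGP2, measured 11.3, 12.95, 7.10, 8.96 and 8.74 CPM in WT and 6.71, 6.80, 7.66, 6.31 and 5.84 CPM in Fbp1-deleted livers, a change of -0.56 (SE 0.17, adjusted p = 0.0289), with overlap through the same 2 livers. Ifih1, which encodes MDA5, measured 21.01, 24.6, 16.4, 18.1 and 16.5 CPM in WT and 18.9, 16.9, 15.0, 16.3 and 16.4 CPM in Fbp1-deleted livers. Its change of -0.21 (SE 0.13, adjusted p = 0.251) was not called, and its groups overlapped.

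The calls of Ddx58 and Dhx58 were not kept in every fit that left out 1 liver. Ddx58 was not called without WT replicate 2 (adjusted p = 0.0543). Dhx58 was not called when any of WT 1 and 2 and Fbp1-deleted 6, 7, 9 and 10 was left out (adjusted p from 0.0538 to 0.088). Against WT replicates 3 to 5 the changes were -0.36 (adjusted p = 0.124) for Ddx58 and -0.31 (adjusted p = 0.22) for Dhx58.

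Of the 4 genes of the ISG15 system, Isg15 alone was called. Isg15, at chr4:156199424-156200818, encodes a ubiquitin-like protein that is attached to other proteins during the interferon response. Its levels were 6.59, 8.42, 3.95, 4.48 and 3.60 CPM in WT and 2.25, 2.40, 2.42, 2.67 and 1.598 CPM in Fbp1-deleted livers, a change of -1.26 (SE 0.25, adjusted p = 0.00406). The groups did not overlap, WT replicates 1 and 2 were the highest, and without them the change was -0.82 (adjusted p = 0.042). Of the 31-base words of its transcripts, 13.1% occur in other genes, so some of its estimated counts are uncertain.

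Usp18, at chr6:121245906-121270917, encodes the protease that removes ISG15 and also damps signalling at IFNAR2. It stood at 14.6, 17.4, 6.45, 6.94 and 6.17 CPM in WT and at 5.65, 6.02, 6.69, 5.52 and 5.01 CPM in Fbp1-deleted livers, and its change of -0.84 (SE 0.29, adjusted p = 0.0594) was not called. WT replicates 1 and 2 were far above the other 8 livers, which overlapped. Without that pair the change of Usp18 was -0.17 (adjusted p = 0.52). Herc6, which encodes the main ISG15 ligase of the mouse, changed by -0.37 (SE 0.19, adjusted p = 0.18). Trim25, which encodes a ubiquitin ligase that acts on RIG-I, changed by -0.27 (SE 0.10, adjusted p = 0.0712). Neither was called.

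The OAS enzymes make the short oligoadenylates that activate RNase L, and PKR, encoded by Eif2ak2, stops translation when it binds double-stranded RNA. Of these 7 genes 3 fell, namely Oas1a, Oasl1 and Oasl2. Oas1a, at chr5:120896256-120907521, stood at 4.13, 4.78, 3.57, 3.66 and 2.62 CPM in WT and at 1.63, 1.67, 1.84, 1.27 and 2.26 CPM in Fbp1-deleted livers, a change of -1.11 (SE 0.22, adjusted p = 0.00398). Oasl2, a member of the family with ubiquitin-like domains, stood at 6.396, 7.35, 5.09, 5.19 and 3.81 CPM and 2.63, 3.29, 3.78, 2.25 and 3.31 CPM, a change of -0.87 (SE 0.21, adjusted p = 0.011). Both were apart between the groups. Oasl1, which is reported to hold back IRF7 translation in the mouse, measured 14.2, 17.2, 7.53, 8.58 and 10.8 CPM in WT and 5.84, 6.97, 8.10, 4.25 and 3.80 CPM in Fbp1-deleted livers. Its change was -1.01 (SE 0.26, adjusted p = 0.0164), and Fbp1-deleted replicate 8 lay above WT replicate 3. Against WT replicates 3 to 5 alone the changes were -0.92 (adjusted p = 0.0435) for Oas1a, -0.62 (adjusted p = 0.101) for Oasl2 and -0.63 (adjusted p = 0.129) for Oasl1.

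Oas1g, Oas2, Oas3 and Eif2ak2 were not called. Their changes were -0.80 (SE 0.29, adjusted p = 0.0686) for Oas1g, -0.63 (SE 0.25, adjusted p = 0.0953) for Oas2 and -0.39 (SE 0.24, adjusted p = 0.269) for Oas3. Eif2ak2 measured 16.8 ± 1.26 CPM in WT and 16.9 ± 2.19 CPM in Fbp1-deleted livers, a change of 0.01 (SE 0.11, adjusted p = 0.969), the one fitted value of the 41 that was above 0. Oas1a and Oas1g are near copies. Of the 31-base words of Oas1a, 68.7% also occur in Oas1g, so the split of reads between them is uncertain. Counted together they stood at 5.58 ± 1.01 CPM in WT and 2.78 ± 0.439 CPM in Fbp1-deleted livers, a change of -1.0 (SE 0.18, adjusted p = 0.00226).

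All 4 IFIT genes fell. They lie side by side on chromosome 19 (GRCm38) and encode proteins that bind foreign RNA by its 5′ end or stop its translation. Ifit1, at chr19:34640871-34650009, stood at 15.5, 14.9, 6.07, 5.85 and 5.76 CPM in WT and at 2.83, 3.34, 4.51, 2.85 and 2.42 CPM in Fbp1-deleted livers. The change was -1.59 (SE 0.33, adjusted p = 0.00664), a fold of 3.02, and the groups did not overlap. WT replicates 1 and 2 were at over 2 times the level of the other WT livers, and without them the change was -0.88 (adjusted p = 0.0283).

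Ifit3, at chr19:34583531-34588731, stood at 22.7, 27.9, 13.1, 9.01 and 13.99 CPM in WT and at 6.42, 6.74, 8.48, 5.40 and 5.73 CPM in Fbp1-deleted livers, a change of -1.40 (SE 0.28, adjusted p = 0.00503). Ifit2, at chr19:34550694-34576419, stood at 3.84, 4.49, 2.76, 2.79 and 1.95 CPM in WT and at 1.198, 1.504, 1.55, 1.88 and 1.71 CPM in Fbp1-deleted livers, a change of -1.02 (SE 0.25, adjusted p = 0.0129). Both were apart between the groups. Ifit3b, at chr19:34607970-34613401, measured 5.66, 6.09, 2.27, 1.97 and 2.83 CPM in WT and 1.39, 1.89, 2.86, 1.21 and 1.65 CPM in Fbp1-deleted livers, a change of -1.06 (SE 0.35, adjusted p = 0.0467), and Fbp1-deleted replicate 8 lay above 3 of the WT livers. The call of Ifit3b was lost when any of WT 1, 2 and 5 and Fbp1-deleted 6, 7, 9 and 10 was left out (adjusted p 0.0561 to 0.138), with limma-voom (adjusted p = 0.0838) and without robust shrinkage (adjusted p = 0.0521).

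Ifit3 shares 61.8% of its 31-base words with Ifit3b, and the printed promoter stretches of both are the same. Counted together the pair stood at 21.1 ± 9.66 CPM in WT and 8.36 ± 1.82 CPM in Fbp1-deleted livers, a change of -1.34 (SE 0.29, adjusted p = 0.00927). With that pair of WT livers left out, the changes were -0.88 (adjusted p = 0.0187) for Ifit3, -0.67 (adjusted p = 0.122) for Ifit2 and -0.39 (adjusted p = 0.475) for Ifit3b.

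**Figure D3:**
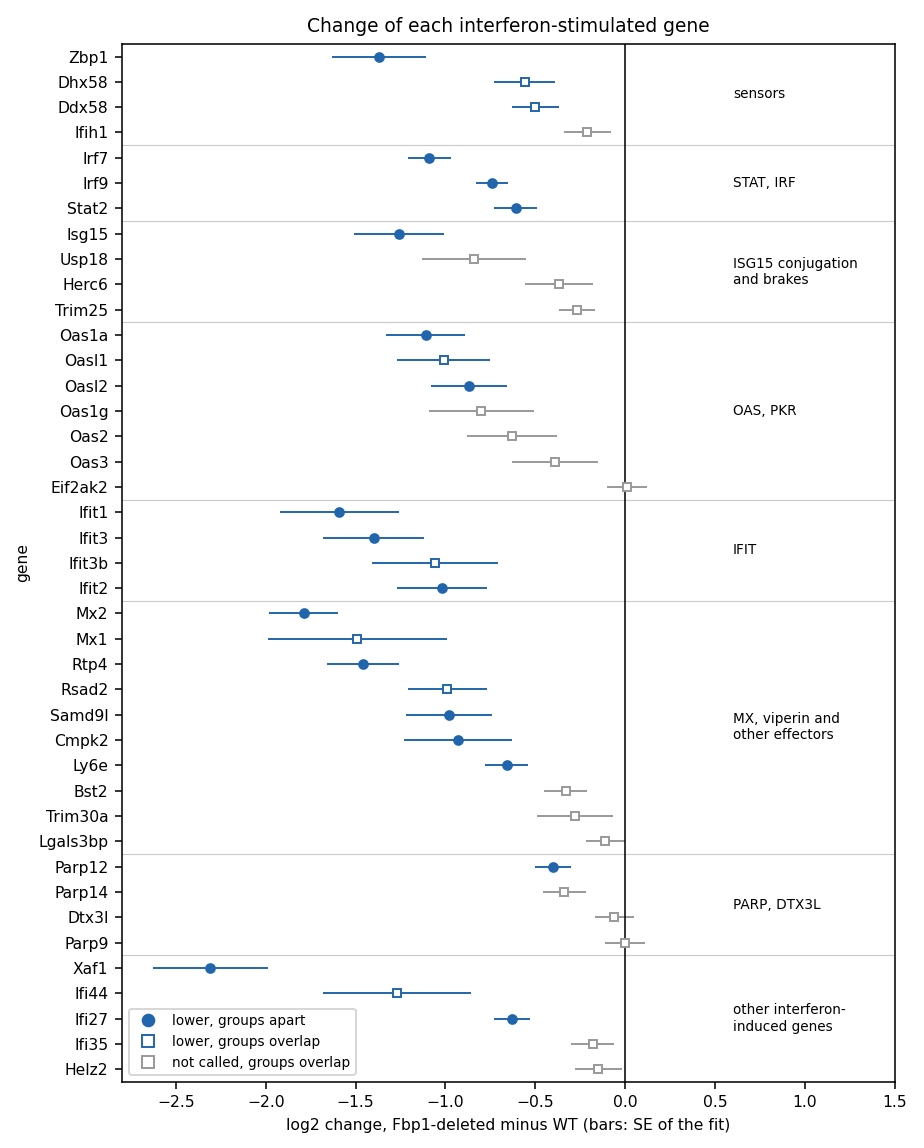
Log2 change of each of the 41 genes, Fbp1-deleted minus WT, with the SE as bars, grouped by role. Filled circles are genes called lower with the groups apart (18), open squares are genes called lower whose groups overlap (7), and grey squares are not called (16). The points run from -2.31 for Xaf1 to 0.01 for Eif2ak2.

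Of the 10 MX GTPases, viperin and other antiviral effectors, 7 fell. Mx2, at chr16:97535308-97560900, belongs to the dynamin-like GTPases that trap viral particles. Many laboratory strains, C57BL/6 among them, carry defective Mx genes, and the annotation used here lists Mx2 as a polymorphic pseudogene, so its transcript is measured and not its protein. Mx2 stood at 8.56, 9.11, 6.55, 8.85 and 5.71 CPM in WT and at 2.44, 2.45, 2.23, 2.49 and 1.598 CPM in Fbp1-deleted livers. The change was -1.79 (SE 0.19, adjusted p = 4.91e-05), a fold of 3.45, and the groups did not overlap. It moved little without WT replicates 1 and 2, to -1.65 (adjusted p = 0.00168). Mx1, at chr16:97447035-97462907, was near the lower end of the levels, with 1.67, 2.78, 1.14, 0.546 and 1.29 CPM in WT and 0.383, 0.947, 0.485, 0.728 and 0.110 CPM in Fbp1-deleted livers. Its change of -1.49 (SE 0.50, adjusted p = 0.0466) passed the threshold narrowly, and WT replicate 4 lay among the Fbp1-deleted livers. The call of Mx1 was lost with limma-voom (adjusted p = 0.0597), without robust shrinkage (adjusted p = 0.0516), and in 8 of the 10 fits that left out one liver, those without WT 1, 2, 3 and 5 and without Fbp1-deleted 6, 8, 9 and 10 (adjusted p 0.0582 to 0.149).

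Rtp4, at chr16:23520291-23614222, encodes an interferon-induced chaperone of receptor transport. It stood at 27.8, 25.1, 13.8, 15.7 and 16.4 CPM in WT and at 7.57, 6.52, 7.61, 5.95 and 8.27 CPM in Fbp1-deleted livers, a change of -1.46 (SE 0.20, adjusted p = 0.000311). The groups were apart, and without WT replicates 1 and 2 the change was -1.09 (adjusted p = 0.00163). Its span overlaps Gm45338 and Masp1, and 12.5% of its 31-base words occur in Gm45338. Ly6e, at chr15:74955051-74959905, encodes a lipid-anchored surface protein that affects viral entry. It stood at 226, 272, 248, 246 and 281 CPM in WT and at 159, 171, 203, 130.4 and 143 CPM in Fbp1-deleted livers, a change of -0.66 (SE 0.12, adjusted p = 0.0024). The groups were apart as well, WT replicates 1 and 2 did not lead, and without them the change was -0.68 (adjusted p = 0.0135).

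Rsad2 and Cmpk2 are neighbours on chromosome 12. Rsad2 encodes viperin, an enzyme that makes a chain-terminating nucleotide, and Cmpk2 a nucleotide kinase of mitochondria. Rsad2 stood at 8.81, 10.3, 6.39, 6.34 and 5.25 CPM in WT and at 3.40, 5.46, 3.59, 3.34 and 2.92 CPM in Fbp1-deleted livers, a change of -0.99 (SE 0.22, adjusted p = 0.00724). Fbp1-deleted replicate 7 lay above WT replicate 5, so the groups overlapped. Cmpk2 stood at 3.20, 7.19, 3.63, 3.66 and 3.29 CPM in WT and at 2.11, 3.18, 2.71, 1.15 and 1.82 CPM in Fbp1-deleted livers, a change of -0.93 (SE 0.30, adjusted p = 0.0394). Its groups were apart by a narrow margin, and WT replicate 2 stood far above the rest. The call of Cmpk2 was lost when any of WT 2 and 3 and Fbp1-deleted 6, 9 and 10 was left out (adjusted p from 0.0513 to 0.13).

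Samd9l, which encodes a restrictor of poxviruses and of cell growth, stood at 16.5, 14.3, 7.91, 7.81 and 8.79 CPM in WT and at 5.89, 4.79, 6.64, 3.88 and 6.89 CPM in Fbp1-deleted livers, a change of -0.98 (SE 0.24, adjusted p = 0.0125) with the groups apart. Bst2 (tetherin), Trim30a and Lgals3bp were not called. Bst2, which tethers budding virus to the cell surface, measured 136 ± 17.0 CPM in WT and 108 ± 13.9 CPM in Fbp1-deleted livers, a change of -0.33 (SE 0.12, adjusted p = 0.0604). Trim30a changed by -0.28 (SE 0.21, adjusted p = 0.387), and Lgals3bp, a secreted glycoprotein gene, by -0.11 (SE 0.11, adjusted p = 0.511). Without WT replicates 1 and 2, Mx1, Rsad2, Cmpk2 and Samd9l were no longer called, with changes of -0.90 (adjusted p = 0.322), -0.68 (adjusted p = 0.0744), -0.68 (adjusted p = 0.169) and -0.54 (adjusted p = 0.108).

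Of the 4 genes of ADP-ribosylation, Parp12 fell and Parp9, Parp14 and Dtx3l were not called. PARP9 and the ubiquitin ligase DTX3L act as a pair, and their genes lie head to head with overlapping ends on chromosome 16. Parp12, at chr6:39086410-39118349, encodes a mono-ADP-ribosyltransferase that restricts viral replication. It stood at 28.3, 29.8, 26.2, 29.3 and 25.9 CPM in WT and at 23.2, 20.9, 22.5, 18.1 and 20.8 CPM in Fbp1-deleted livers, a change of -0.40 (SE 0.10, adjusted p = 0.0101) with the groups apart. Parp14 changed by -0.34 (SE 0.12, adjusted p = 0.0622) and Dtx3l by -0.06 (SE 0.11, adjusted p = 0.724). Parp9 measured 38.7 ± 5.26 CPM in WT and 38.6 ± 3.60 CPM in Fbp1-deleted livers, a change of 0.00 (SE 0.11, adjusted p = 0.997). Without WT replicates 1 and 2 none of the 4 was called, and Parp12 had a change of -0.37 (adjusted p = 0.0583).

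Of the other 5 interferon-induced genes, Xaf1, Ifi27 and Ifi44 fell. Xaf1, at chr11:72301629-72313733, encodes a protein that counteracts the apoptosis inhibitor XIAP. It stood at 21.9, 23.7, 13.3, 14.04 and 8.28 CPM in WT and at 2.25, 2.23, 4.99, 4.25 and 2.70 CPM in Fbp1-deleted livers. The change of -2.31 (SE 0.32, adjusted p = 0.000772) was a fold of 4.95, the largest of the 41. The groups did not overlap, WT replicate 5 was the lowest WT liver, and without WT replicates 1 and 2 the change was -1.85 (adjusted p = 0.00454). Ifi27, at chr12:103434211-103440239, encodes a small membrane protein of mitochondria and the nuclear envelope. It stood at 90.5, 92.9, 93.5, 106 and 105 CPM in WT and at 53.1, 61.5, 63.4, 75.5 and 60.8 CPM in Fbp1-deleted livers, a change of -0.63 (SE 0.10, adjusted p = 0.00116) with the groups apart. Replicates 1 and 2 were the lowest WT livers for this gene, and without them its change was -0.69 (adjusted p = 0.00604).

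Ifi44 stood at 4.38, 4.13, 1.62, 2.13 and 1.59 CPM in WT and at 1.44, 0.947, 1.99, 0.425 and 0.882 CPM in Fbp1-deleted livers, a change of -1.27 (SE 0.41, adjusted p = 0.0408). Fbp1-deleted replicate 8 lay above WT replicates 3 and 5. Its call was lost with limma-voom (adjusted p = 0.0545), and when any of WT 1 and 2 and Fbp1-deleted 6, 7, 9 and 10 was left out (adjusted p 0.0667 to 0.111). Without both WT replicates its change was -0.64 (adjusted p = 0.366). Ifi35 changed by -0.18 (SE 0.12, adjusted p = 0.328) and Helz2, a helicase gene, by -0.15 (SE 0.13, adjusted p = 0.428). Neither was called.

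Levels between genes can be compared only roughly, per kilobase of all annotated exons of a gene joined. That length can exceed the length of the transcripts present. Whether the counts were already adjusted for transcript length was not stated. In WT livers Bst2 led with 150.6 CPM per kilobase, followed by Ly6e with 67.3 and Ifi27 with 66.5. Ly6e and Ifi27 could not be told apart in that order, and of the 6 highest genes those 2 were the ones called lower. The lowest were Ifi44, Mx1 and Oas3, with 0.452, 0.392 and 0.311 CPM per kilobase.

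Reads of the interferons themselves were almost absent. Of 18 type I interferon genes, 14 had 0 reads in all 10 libraries, Ifnb1 among them. A count of 0 allows a level of up to 0.126 to 0.169 CPM (3 counts of the library's total), with counting error alone considered. Ifnk, which encodes interferon kappa, had 1, 1, 1, 0 and 2 reads in the WT livers and 2, 3, 0, 7 and 6 in the Fbp1-deleted livers, with overlap between the groups. Ifng, the type II interferon, had 1 read in each of 3 WT livers and 0 in the Fbp1-deleted livers. None of the 21 interferon genes listed passed the filter on low counts, so no test was made of them.

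Of the 9 receptor, kinase and STAT3 genes tested, 0 were called lower and 1 higher, with a median change of -0.08. Jak1, the kinase bound to IFNAR2, went from 73.5 ± 8.98 CPM to 93.4 ± 9.49 CPM, and its change was 0.35 (SE 0.11, adjusted p = 0.0363). That call was lost with upper quartile factors, library totals and no filter (adjusted p = 0.0586, 0.0734 and 0.0763), and when any of WT 1, 2 and 5 and Fbp1-deleted 6, 9 and 10 was left out (adjusted p 0.078 to 0.0961). Without WT replicates 1 and 2 its change was 0.25 (adjusted p = 0.199). Ifnar1 and Ifnar2 changed by 0.07 (SE 0.10, adjusted p = 0.634) and -0.11 (SE 0.09, adjusted p = 0.392). Tyk2, the other receptor kinase, changed by -0.23 (SE 0.09, adjusted p = 0.101), and without Fbp1-deleted replicate 8 it was called lower (adjusted p = 0.0475). With upper quartile factors and with library totals, Tyk2 was also called lower (adjusted p = 0.0489 and 0.0415). Ifnlr1 did not pass the filter.

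A list of other IRF factors also held Irf2bp1 and Irf2bp2, which encode IRF2-binding proteins and not IRF factors. Of its 8 genes tested, 3 fell and none rose, beside 10% lower and 10.6% higher of all genes tested. Irf1, which acts in both interferon pathways, stood at 37.4, 38.2, 31.9, 31.3 and 40.2 CPM in WT and at 12.1, 12.8, 20.1, 9.65 and 7.77 CPM in Fbp1-deleted livers, a change of -1.52 (SE 0.21, adjusted p = 0.000538). Irf5, a factor of macrophages and B cells downstream of Toll-like receptors, stood at 9.94, 8.34, 8.34, 11.1 and 11.1 CPM and 2.44, 4.01, 6.06, 5.16 and 3.42 CPM, a change of -1.21 (SE 0.22, adjusted p = 0.00201). Both were apart between the groups. Irf2bp1, a corepressor gene, changed by -0.48 (SE 0.15, adjusted p = 0.0388), a call lost when any of WT 2, 3 and 5 and Fbp1-deleted 9 and 10 was left out (adjusted p 0.0504 to 0.0936). Against WT replicates 3 to 5 its adjusted p was 0.104. Irf3, the factor that first induces interferon beta, changed by -0.15 (SE 0.11, adjusted p = 0.375).

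Of 10 brakes on interferon signalling tested, 3 were called lower and 1 higher, beside 10% and 10.6% of all genes tested. Cish, a SOCS family gene, changed by -1.81 (SE 0.43, adjusted p = 0.0163), and without a filter its adjusted p was 0.051. Pias4 and Pias3, which encode SUMO ligases that inhibit STATs, changed by -0.47 (SE 0.13, adjusted p = 0.0176) and -0.66 (SE 0.21, adjusted p = 0.0369). The call of Pias3 was lost when any of WT 1, 2 and 5 and Fbp1-deleted 6, 7, 9 and 10 was left out (adjusted p 0.0571 to 0.0897). Against WT replicates 3 to 5 neither Pias4 (adjusted p = 0.106) nor Pias3 (adjusted p = 0.173) was called. Ptpn2, which encodes a phosphatase of JAK1, rose by 0.63 (SE 0.15, adjusted p = 0.0101). Socs1 did not pass the filter, with 0.370 ± 0.288 CPM in WT and 0.327 ± 0.0846 CPM in Fbp1-deleted livers.

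Of the 17 sensors and adaptors upstream of interferon that were tested, 2 fell and 3 rose. These counts are near the shares over all genes tested, 10% lower and 10.6% higher. Tank and Ticam1, adaptor genes of the TBK1 and TRIF routes, rose by 0.62 (SE 0.16, adjusted p = 0.0133) and 1.04 (SE 0.27, adjusted p = 0.0224). Cgas, which encodes the cytosolic DNA sensor, went from 0.534 ± 0.222 CPM to 1.54 ± 0.620 CPM, and its change was 1.52 (SE 0.38, adjusted p = 0.0138). Rnf135, which encodes a ubiquitin ligase of RIG-I, fell by 0.57 (SE 0.15, adjusted p = 0.0164). Mavs, the adaptor of the RIG-I-like receptors, changed by 0.11 (SE 0.12, adjusted p = 0.558). The call of Ticam1 was lost with no filter (adjusted p = 0.0942), and when any of WT 1 and 2 and Fbp1-deleted 6 and 9 was left out (adjusted p 0.0536 to 0.0556). With WT 1 and 2 both left out, Tank, Ticam1, Cgas and Rnf135 were not called (adjusted p = 0.0736, 0.129, 0.0889 and 0.0656). Unc93b1, the other gene that fell, was named after its value was seen.

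A wider list of 68 tested interferon-induced genes outside the 41 held 28 lower and 2 higher genes, with a median change of -0.44. Iigp1, a GTPase gene of the response to interferon gamma, went from 209 ± 28.4 CPM to 112 ± 11.3 CPM, and its change was -0.90 (SE 0.12, adjusted p = 0.000219). Gbp7 changed by -1.71 (SE 0.23, adjusted p = 0.000508) and Irgm2 by -0.95 (SE 0.14, adjusted p = 0.000538). Tor3a, an interferon-induced torsin gene, moved the other way, from 5.94 ± 1.25 CPM to 16.5 ± 2.95 CPM, and its change was 1.47 (SE 0.17, adjusted p = 8.58e-05).

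Families known chiefly as targets of interferon gamma share genes with that list. By role, the medians of the 41 genes ran from -1.23 (IFIT genes) to -0.20 (ADP-ribosylation genes). Of 11 guanylate-binding protein genes, 6 fell, none rose and the median was -1.14. Gbp11, Gbp2 and Gbp6 had changes of -3.14 (SE 0.35, adjusted p = 6.63e-05), -1.14 (SE 0.19, adjusted p = 0.00108) and -1.30 (SE 0.24, adjusted p = 0.00229). Of 10 immunity-related GTPase genes tested, 8 fell and 1 rose, with a median of -0.75. Tgtp1 and Igtp changed by -1.76 (SE 0.29, adjusted p = 0.00111) and -1.22 (SE 0.19, adjusted p = 0.00124). Several of these GTPases have close copies, so their single values are uncertain. Of 17 immunoproteasome and class I loading genes, 7 fell and 2 rose, with a median of -0.35, and Psmb10, Tapbp, Psme1 and Psmb8 changed by -1.12 (SE 0.15, adjusted p = 0.000332), -0.66 (SE 0.11, adjusted p = 0.00111), -0.56 (SE 0.10, adjusted p = 0.00226) and -0.65 (SE 0.12, adjusted p = 0.00231). Differences between these lists and the 41 genes were not tested. The other higher genes of these lists, Isg20, Irgq, Calr and Pdia3, were named after their values were seen. Over all the pathway, interferon-induced and family lists outside the 41, the cell markers left out, 48 genes were lower and 10 higher. Genes on more than 1 list were counted once. Of all genes tested, 10% were lower and 10.6% higher. Without WT replicates 1 and 2 the counts were 22 lower and 2 higher, beside 5.12% of all genes tested that were lower.

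**Figure D4:**
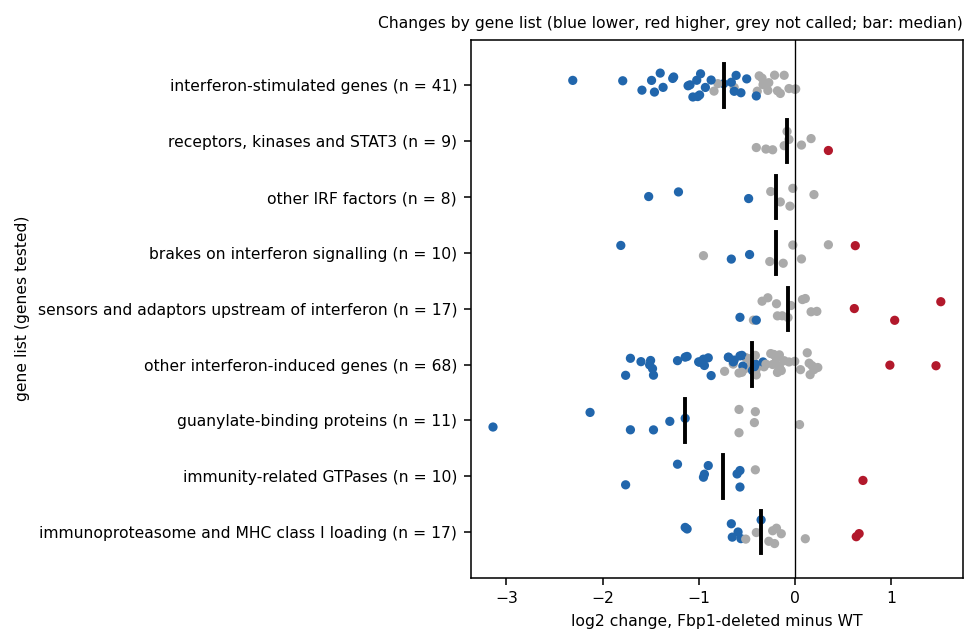
Log2 change, Fbp1-deleted minus WT, of each tested gene of the 41 interferon-stimulated genes and of the related lists. Blue points were called lower, red points higher and grey points not called, and the bar is the median of each list. The median is -0.74 for the 41 genes, -0.08 for the receptors, kinases and STAT3 and -1.14 for the guanylate-binding proteins.

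Some markers of immune cells were lower in the Fbp1-deleted livers as well, beside 10% of all genes tested that were called lower. Of 12 markers of Kupffer cells and macrophages, 8 fell, among them C1qb (-0.47), Lyz2 (-0.88), C1qc (-0.52) and Vsig4 (-0.48), each on the log2 scale. Their summed level was 422 to 573 CPM in WT and 283 to 433 CPM in Fbp1-deleted livers, and it was 545, 573 and 545 CPM in WT replicates 1, 2 and 3. Dendritic cell markers summed to 39.6 to 46.5 CPM and 32.6 to 36.1 CPM, with 1 of 7 tested lower (Zbtb46). In that sum the groups did not overlap, but Tcf4 alone made up 24.0 ± 1.33 CPM in WT and 20.3 ± 2.21 CPM in Fbp1-deleted livers. Tcf4 was not called (adjusted p = 0.0955). The fitted change was below 0 in 5 of the 7, while Flt3 (0.63) and Ccr9 (0.23) went the other way and were not called. T, NK and B cell markers summed to 9.01 to 15.8 CPM and 7.58 to 9.22 CPM, with overlap, and 2 of 9 tested were lower (Cd79a and Gzma). Neutrophil and monocyte markers summed to 12.4 to 17.5 CPM in WT and 5.68 to 12.4 CPM in Fbp1-deleted livers, with 1 of 6 tested lower (Ly6c2). The fitted change was below 0 in all 6 of these (median -0.72) and in 8 of the 9 T, NK and B cell markers (median -0.89). For the Kupffer cell and macrophage markers it was below 0 in all 12 (median -0.49), beside 49.1% of all genes tested.

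Markers of the other cell types overlapped in their sums. Sinusoidal endothelial markers summed to 291 to 350 CPM in WT and 209 to 336 CPM in Fbp1-deleted livers. Of these 8 markers 1 was called higher (Lyve1), beside 10.6% of all genes tested. The fitted change was below 0 in 7 of the 8, with a median of -0.25 over the 8, and 0 were called lower. Stellate cell markers summed to 162 to 239 CPM and 215 to 291 CPM, with 1 of 8 higher (Dcn). Cholangiocyte markers summed to 16.9 to 30.0 CPM and 13.2 to 22.8 CPM, with none of 6 called. Of 9 hepatocyte markers Cyp2e1 was lower and Cps1 higher. No marker was at 0 in all libraries. The calls of Vsig4, Zbtb46, Gzma, Dcn and Cps1 were each lost without Fbp1-deleted replicate 9 (adjusted p = 0.0519, 0.0703, 0.0782, 0.0993 and 0.0541). They were lost as well without Fbp1-deleted replicate 6 (Vsig4, Gzma, Dcn, Cps1), 7 (Zbtb46, Dcn) or 10 (Gzma, Dcn, Cps1). The same held without WT replicate 1 (Zbtb46, Gzma), 2 (Zbtb46, Gzma, Dcn, Cps1), 4 (Gzma, Dcn) or 5 (Gzma, Dcn, Cps1), with an adjusted p of at most 0.13. With WT 1 and 2 both left out, C1qb, Lyz2, C1qc, Vsig4, Cd79a, Gzma, Zbtb46, Cps1 and Dcn were not called (adjusted p = 0.0642, 0.088, 0.101, 0.0842, 0.101, 0.123, 0.189, 0.101 and 0.0677). The call of Dcn was also lost with upper quartile factors, library totals, the stricter filter and no robust shrinkage (adjusted p = 0.123, 0.116, 0.0572 and 0.0555). Those of Zbtb46 and Gzma were lost with no filter (adjusted p = 0.0609 and 0.0615). The part of these cells in the lower levels of the interferon-stimulated genes was not tested.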

How the data were processed

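RNA of 10 snap-frozen livers was sequenced from mRNA libraries that do not keep the strand, per the labels' protocols, with 5 biological replicates in each group per the series' design text. Values deposited were estimated counts, 1 per gene and liver, all of them whole numbers. CASAVA, Salmon and GRCm38 are named, without versions, in the submitters' processing notes, while the design text also describes STAR and featureCounts counting. Salmon divides reads between similar transcripts, so near copies are uncertain. Settings of the step from transcripts to genes were not stated.

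Gene names came from GENCODE M21 (52175 identifiers matched exactly, 1180 without the version, 37 not at all). Counts were fitted in edgeR 4.0.16 (R 4.3.3) with TMM scaling, the filterByExpr filter, a robust quasi-likelihood F test of the group alone, and Benjamini-Hochberg adjustment over all genes tested, at 0.05. The SE was taken as the size of the log2 change over the root of F. The fit was tested on simulated data. No library was a duplicate of another of its group (smallest chi-square per degree of freedom 16.2). Pairs across the groups were not compared. No replicate number occurs in both groups, so nothing was paired. Alternatives used limma 3.58.1 (voom), DESeq2 1.42.0, other scalings and filters (the stricter one kept genes with at least 1 CPM in at least 5 libraries), a threshold of 0.01, near copies counted together, and each library left out. Shared 31-base words were counted over GENCODE M21 transcripts. Promoter windows were read with Python 3.11.15.

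Values in every library are given for each gene of the 41 that was called and for Usp18 and Ifih1. Of other lists the called genes with the 4 smallest adjusted p-values are named, beside Ifnar1, Ifnar2, Tyk2, Irf3, Mavs and Socs1. The 41 genes and all lists were chosen with earlier results of these data known. The planned identity of near-copy proteins was not analysed here. Some genes of the lists are not reported here.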

Additional observations from a re-analysis of the deposited data

Results flagged for a closer look

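In 5 of the 82 sets of 5 livers looked at (41 genes, 2 groups), 1 liver stood apart from the other 4 by more than 0.71 of the group's whole range. Chance alone marks about 1 in 20 such sets. Irf7 was at 20.3 CPM in Fbp1-deleted replicate 8, with the other 4 livers of its group between 13.3 and 14.7 CPM. Rsad2 was at 5.46 CPM in Fbp1-deleted replicate 7, against 2.92 to 3.59 CPM in the others. Mx2 was at 1.6 CPM in Fbp1-deleted replicate 10, below the 2.23 to 2.49 CPM of the others. Bst2, the tetherin gene, was at 83.3 CPM in Fbp1-deleted replicate 6, where the other 4 livers lay between 110.4 and 116 CPM. Cmpk2 was at 7.19 CPM in WT replicate 2, against 3.20 to 3.66 CPM in the other WT livers. The 4 Fbp1-deleted values came from 4 different livers.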

How the results depend on the processing

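Of the 25 calls among the 41 genes, 19 held in all planned fits at 0.05, and 6 (Ddx58, Dhx58, Ifit3b, Mx1, Cmpk2 and Ifi44) were lost without at least 1 library. Of the 16 genes not called, 6 (Usp18, Trim25, Oas1g, Oas2, Bst2 and Parp14) were called in at least 1 planned fit and 10 in none. The number lower was 25 with RLE factors and with no filter, 26 with the stricter filter, 23 without robust shrinkage and 24 with near copies counted together. Of all genes tested in those fits, 9.96%, 4.19%, 11.7%, 10.1% and 10% were called lower. In the last fit Ifit3b and Oas1g were no longer counted as genes of their own, and both combined pairs were called lower. The median change ran from -0.83 to -0.66 over the planned settings that kept all livers. The value of -0.66 came from the fit with near copies counted together, so it covers fewer genes. At 0.01, 14 of the 41 were lower, with 26 lower and 1 higher in the related lists and 1311 of all genes called. Without WT replicates 1 and 2 these numbers were, at 0.05, 13, 22, 2 and 1566. The number higher in the related lists was 6 with no filter.

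Leaving out 1 library at a time gave 19 to 27 lower among the 41, a median of -0.80 to -0.65, 34 to 53 lower and 4 to 10 higher in the related lists, and 2105 (without Fbp1-deleted replicate 6) to 3918 (without replicate 8) of all genes. The 41 genes had 0 called higher in any setting run. Values near 0 changed sign. Eif2ak2 was at -0.07 with upper quartile factors, -0.08 with library totals, 0.00 with no filter and with limma-voom, -0.01 with the stricter filter, and from -0.06 to 0.07 with 1 library left out, below 0 without WT 3 (-0.03), WT 5 (-0.01), Fbp1-deleted 9 (-0.06) or Fbp1-deleted 10 (-0.02). Parp9 was at 0.01 with DESeq2 and limma-voom and from -0.06 to 0.05 with 1 library left out, above 0 without WT 3 (0.05), WT 4 (0.04) or Fbp1-deleted 8 (0.03), 9 (0.01) or 10 (0.02). Ifnar1 was at -0.02 with library totals, and Trim30a (0.02) and Mavs (-0.03) changed sign without WT replicates 1 and 2. The cause was not tested. No paired analysis was possible because the replicate numbers differ between the groups. Precision is limited by 5 livers per group and by counts of a few CPM for genes such as Mx1 and Ifi44.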
